A study of Homo sapiens with 72 samples.

Results

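Trimethylation of lysine 27 of histone H3 (H3K27me3) was compared between untreated Raji and untreated REH cells, with 3 Cut&Tag libraries of each line, which are 6 of the 72 samples of the series and of the 54 with peak calls used here. Raji is a Burkitt's lymphoma line, a tumour of mature germinal centre B cells, and REH is an acute lymphocytic leukemia line with the features of a B cell precursor. Both lines were grown in the same RPMI medium and neither group received an agent; the treated groups, named where they are used, received 1 nM bryostatin overnight by the labels (the study's supplement words the duration differently). The 6 libraries were chosen by their labels (line, no treatment, H3K27me3 antibody), and the peaks on chromosomes 1 to 22, X and Y were used. The labels number the replicates but do not say whether they came from separate cultures, so each p-value measures the spread between these libraries, which may be technical. Each line is a single established line, so a difference of these lines and one of mature and precursor B cell tumours cannot be told apart.

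H3K27me3 is written by Polycomb repressive complex 2, whose catalytic subunit is EZH2, and is read by the CBX proteins of Polycomb repressive complex 1. It lies over promoters of genes that are held silent and, in places, over domains that cover whole genes and their surroundings. In B cell development, genes of other lineages and of other stages carry the mark, and the set changes as a precursor becomes a mature B cell. H3K4me3, by contrast, marks promoters that are open for transcription, and H3K4me2 marks promoters and enhancers. A promoter is taken here as the sequence within 1 kb of any annotated start of a protein-coding gene. It was counted as marked where a called peak overlapped that window by at least 1 bp. Each mark was counted on its own, so in a gene with several starts different marks may lie at different starts. Peak heights are given in RPKM, the coverage of the highest 10 bp bin scaled to bin length and to the number of mapped reads.

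Promoters that differed between the lines were of both kinds, rich in CpG dinucleotides and nearly without them, and 5 RefSeq promoter sequences (GRCh38.p14, 250 bases before to 50 after the start, 5′ to 3′ along the gene) show this for genes described in the results. CpG dinucleotides are in capitals. KIT and FCRL3 were marked in REH and in no Raji library, while FLT3, CD24 and CTLA4 were marked in Raji and in no REH library.
KIT (chr4:54657707-54658006, plus strand): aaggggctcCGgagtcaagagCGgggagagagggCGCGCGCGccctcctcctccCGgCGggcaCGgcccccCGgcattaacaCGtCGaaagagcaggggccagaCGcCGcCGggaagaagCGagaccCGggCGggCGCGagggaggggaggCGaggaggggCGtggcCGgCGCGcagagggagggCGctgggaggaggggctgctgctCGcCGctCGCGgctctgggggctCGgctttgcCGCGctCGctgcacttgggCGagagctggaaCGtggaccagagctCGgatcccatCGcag
FCRL3 (chr1:157700720-157701019, minus strand): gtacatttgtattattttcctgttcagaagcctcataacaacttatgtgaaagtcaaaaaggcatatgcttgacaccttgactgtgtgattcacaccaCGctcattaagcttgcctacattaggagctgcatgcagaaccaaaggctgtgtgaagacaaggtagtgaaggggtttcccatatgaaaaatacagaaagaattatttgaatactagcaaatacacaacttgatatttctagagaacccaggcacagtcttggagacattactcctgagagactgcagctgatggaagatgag
FLT3 (chr13:28100527-28100826, minus strand): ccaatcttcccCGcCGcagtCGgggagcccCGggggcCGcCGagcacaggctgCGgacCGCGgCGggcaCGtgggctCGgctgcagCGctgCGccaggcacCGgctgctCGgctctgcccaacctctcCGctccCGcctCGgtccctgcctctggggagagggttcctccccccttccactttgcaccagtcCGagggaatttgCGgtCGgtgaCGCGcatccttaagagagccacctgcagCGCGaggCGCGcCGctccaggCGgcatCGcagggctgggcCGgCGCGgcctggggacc
CD24 (chr6:106975578-106975877, minus strand): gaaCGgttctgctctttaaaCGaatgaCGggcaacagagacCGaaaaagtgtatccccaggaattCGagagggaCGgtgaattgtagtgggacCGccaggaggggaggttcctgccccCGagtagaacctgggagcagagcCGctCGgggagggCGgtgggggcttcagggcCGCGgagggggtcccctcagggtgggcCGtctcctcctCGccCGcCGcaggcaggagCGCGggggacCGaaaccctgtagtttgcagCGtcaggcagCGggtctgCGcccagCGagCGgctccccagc
CTLA4 (chr2:203867521-203867820, plus strand): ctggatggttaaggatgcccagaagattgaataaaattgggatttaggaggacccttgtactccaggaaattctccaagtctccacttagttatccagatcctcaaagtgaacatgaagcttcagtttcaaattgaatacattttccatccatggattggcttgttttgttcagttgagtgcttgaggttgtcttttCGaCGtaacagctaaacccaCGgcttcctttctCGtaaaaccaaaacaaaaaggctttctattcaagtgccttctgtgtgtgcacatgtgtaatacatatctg
The KIT sequence has 38 CpG sites and was covered over its whole length by peaks of all 3 REH libraries. The FCRL3 sequence has 1 CpG site and was covered whole in REH replicates 1 and 2. The FLT3 sequence, with 34 sites, and the CTLA4 sequence, with 4, were covered whole in Raji replicates 2 and 3. The CD24 sequence, with 25 sites, was covered whole in all 3 Raji libraries. None of the 5 sequences had a called base in a library of the other line.

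The Raji libraries differed widely in the number of peaks, and 1 of them stood apart in kind. Raji replicates 1, 2 and 3 held 819, 24143 and 73265 peaks, which covered 2.43, 83.6 and 218 Mb. REH replicates 1, 2 and 3 held 48483, 18841 and 17621 peaks, which covered 231, 106 and 45.3 Mb. The depth, read from the step between neighbouring RPKM values, was 5.12, 22.9 and 32.4 M mapped reads in the Raji libraries and 38.9, 32.5 and 15.2 M in the REH libraries. The shallowest library thus had the fewest peaks in Raji and in REH, and a promoter without a peak is not read as a promoter without the mark. Called length was 101.2 ± 109 Mb (SD, n = 3) in Raji and 127 ± 94.6 Mb (SD, n = 3) in REH (exact two-sided permutation test, p = 0.7). With 3 libraries against 3 this test cannot give a p below 0.1.

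Raji replicate 2 carried peaks at promoters that were marked by H3K4me3. A promoter peak was present at 1.39, 57.0 and 27.4% of the 20033 protein-coding genes in Raji replicates 1, 2 and 3 and at 18.7, 12.7 and 10.7% in REH replicates 1, 2 and 3. Of the genes with a promoter peak in Raji replicate 2, 81.3% had an H3K4me3 peak in at least 2 Raji libraries, while the value was 19.1 and 21.9% in Raji replicates 1 and 3 and 15.9 to 18.4% in REH. Peaks in Raji replicate 2 alone were found at 7954 genes, of which 99.9% had H3K4me3 in at least 2 Raji libraries. The peaks of Raji replicate 2 also held 99.8% of the called length of Raji replicate 1 (2.43 Mb) but 29.9% of that of Raji replicate 3 (218 Mb). Of its own called length 77.8% lay in the peaks of Raji replicate 3. The reason was not tested, and the counts of promoter sets, for all genes and for gene lists, are given with and without this library.

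The share of marked promoters was 28.6 ± 27.8% (SD, n = 3) in Raji and 14.0 ± 4.17% (SD, n = 3) in REH. The groups overlapped, with the lowest and the highest values both in Raji (exact two-sided permutation test, p = 0.6). Without Raji replicate 2 the means differed by 0.371 percentage points. Among the 7746 genes with no H3K4me3 peak in any untreated library of either line, the share was 21.3 ± 20.6% (SD, n = 3) in Raji and 23.5 ± 7.96% (SD, n = 3) in REH (exact permutation p = 0.9). A difference in the share was not detectable with this spread.

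The lines were then compared gene by gene. A promoter was counted as of REH only where at least 2 of 3 REH libraries and no Raji library had a peak, which held for 553 genes (2.76% of all). A promoter of Raji only, by the same rule, was found at 1632 genes (8.15%), and 1317 promoters were marked in at least 2 libraries of both lines. Without Raji replicate 2, with a peak in replicate 1 or 3 counting as marked in Raji, the counts were 707 of REH only (3.53%), 3055 of Raji only (15.2%) and 1942 shared. These are counts of presence with no test. Every promoter marked in Raji replicate 1 was also marked in replicates 2 and 3, so each promoter of Raji only had a peak in both of these, and without replicate 2 the Raji counts rest on replicate 3. In all 3 Raji libraries and in none of REH 88 promoters were marked. For REH, 328 promoters were marked in all 3 REH libraries and in none of Raji.

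The sets were then looked up in libraries that did not define them. In REH cells treated with bryostatin, 71.6, 91.5 and 96.2% of the promoters of REH only had an H3K27me3 peak in replicates 1, 2 and 3, beside 11.3, 15.3 and 17.1% of all genes. In treated Raji cells the same promoters were marked at 0, 0 and 19.3%. The promoters of Raji only were marked at 14.3, 12.3 and 89.5% in treated Raji replicates 1, 2 and 3, beside 3.66, 2.76 and 28.1% of all genes, and at 0, 0.490 and 2.51% in treated REH. Among the treated Raji libraries the third thus held most of them, while each of them had a peak in both untreated replicates 2 and 3. NALM6, another acute lymphocytic leukemia line, was marked in at least 2 of 3 untreated libraries at 13.7% of the promoters of REH only, at 25.5% of those of Raji only and at 53.8% of the shared ones, beside 9.64% of all genes.

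The promoter sets were then read against H3K4me3, with no test. At promoters of REH only it was present in at least 2 Raji libraries in 6.69% of cases and in at least 2 REH libraries in 8.5%, beside 52.9 and 49.4% of all genes. At promoters of Raji only the values were 46.9 and 52.8%, and at shared promoters 20.3 and 19.6%. Since Raji replicate 2 had peaks at most H3K4me3 promoters, the rule that no Raji library may have a peak removes such promoters from the REH set. Without that library H3K4me3 was present in Raji at 26.6% of the promoters of REH only and in REH at 20.1%, and the 154 promoters that this adds had H3K4me3 in Raji in 98.1% of cases. For the promoters of Raji only without that library the values were 27.4% in Raji and 33.7% in REH.

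Some promoters carried H3K27me3 in 1 line and H3K4me3 in the other. Of the 1632 promoters of Raji only, 176 (10.8%) had H3K4me3 in at least 2 REH libraries and in no Raji library, beside 3.70% of all genes. They include MAN1C1, which encodes a Golgi mannosidase, with heights of 606, 686 and 869 RPKM in Raji replicates 1, 2 and 3, no peak in REH, and H3K4me3 in 3 of 3 REH libraries. The ephrin receptor gene EPHB2 had 249 and 342 RPKM in Raji replicates 2 and 3, no peak in the other libraries, and H3K4me3 in 3 of 3 REH libraries. In the other direction, 17 of the 553 promoters of REH only (3.07%, beside 2.46% of all genes) had H3K4me3 in at least 2 Raji libraries and in no REH library. Without Raji replicate 2 these were 52 of 707 (7.36%). More promoters of REH only, 40 (7.23%, beside 3.70% of all genes), had H3K4me3 in at least 2 REH libraries and in no Raji library. Leaving out Raji replicate 2 gave 40 of 707 (5.66%) for these. Of the promoters of Raji only, 49 had H3K4me3 in at least 2 Raji libraries and in no REH library. Of the shared promoters, 83 (6.3%) had H3K4me3 in at least 2 REH libraries and in no Raji library, and 50 the reverse.

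**Figure D1:**
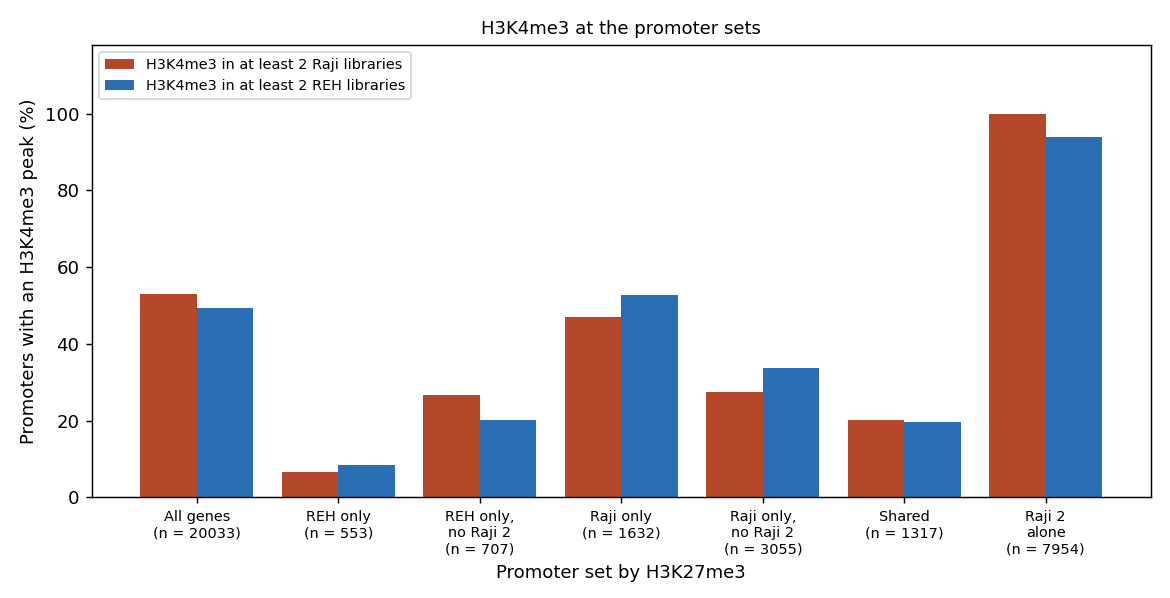
Bars give the percent of promoters with an H3K4me3 peak in at least 2 of 3 untreated Raji (red) or REH (blue) libraries, for all genes and for each promoter set defined by H3K27me3, with the number of genes under each set. The promoters of REH only stand lowest at 6.69 and 8.5%, and those with a peak in Raji replicate 2 alone stand highest at 99.9 and 94.0%.

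Among genes of mature B cells some were marked in REH and carried H3K4me3 in Raji. Of 29 germinal centre and mature B cell genes, 8, 4 and 3 had a promoter peak in REH replicates 1, 2 and 3, and 0, 13 and 2 in Raji replicates 1, 2 and 3. Of these genes 4 were of REH only (beside 2.76% of all genes) and 0 were of Raji only (beside 8.15%), and without Raji replicate 2 the counts were 4 (beside 3.53%) and 2, CCR6 and TNFRSF13B (beside 15.2%). H3K4me3 was present in at least 2 Raji libraries at 26 of the 29 genes and in REH at 6. FCRL1, an Fc receptor-like protein of the B cell surface, had heights of 187, 274 and 145 RPKM in REH replicates 1, 2 and 3 and no peak in Raji. FCRL4, which marks a set of memory B cells, had 223, 206 and 257 RPKM in REH and no peak in Raji. FCER2, the low-affinity IgE receptor CD23, had 162, 216 and 342 RPKM in REH and no peak in Raji. All 3 had H3K4me3 in at least 2 Raji libraries and in none of REH, so the marks were on opposite sides at these genes. FCRL3 had 149 and 185 RPKM in REH replicates 1 and 2 and no peak in replicate 3 or in Raji.

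The B cell transcription factors IKZF3 and IRF4 were marked in REH and carried H3K4me3 in Raji, and IRF4 and CD37 had a peak in Raji replicate 2 as well. IKZF3, the Aiolos zinc finger factor of late B cell stages, had 203 and 467 RPKM in REH replicates 1 and 3, no peak in REH replicate 2 or in Raji, and H3K4me3 in 3 Raji and 0 REH libraries. IRF4, a factor of activated B cells and plasma cells, had 370, 373 and 698 RPKM in REH replicates 1, 2 and 3 and 166 RPKM in Raji replicate 2, with no peak in the other Raji libraries and H3K4me3 in 3 Raji and 0 REH libraries. The tetraspanin gene CD37 had 113 and 98.6 RPKM in REH replicates 1 and 2 and 131 RPKM in Raji replicate 2, and H3K4me3 in 3 Raji and 0 REH libraries.

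The precursor genes were divided. KIT, the receptor of stem cell factor, had 372, 450 and 678 RPKM in REH replicates 1, 2 and 3 and no peak in Raji. FLT3, the receptor of early lymphoid progenitors, had 170 and 176 RPKM in Raji replicates 2 and 3 and no peak in Raji replicate 1 or in REH, and H3K4me3 in 3 REH and 0 Raji libraries. CD34, the progenitor surface antigen, had 140 and 176 RPKM in Raji replicates 2 and 3 and no peak elsewhere. The recombinase gene RAG1 had 376 and 197 RPKM in Raji replicates 2 and 3 and none in REH, with H3K4me3 in all 3 libraries of both lines. LEF1, a factor of early lymphoid cells, had 67.8 RPKM in Raji replicate 3 alone and H3K4me3 in 3 REH and 0 Raji libraries. Of the 22 precursor entries, 1 was of REH only (beside 2.76% of all genes) and 3 were of Raji only (beside 8.15%), and without Raji replicate 2 these were 1 and 4 (beside 3.53 and 15.2%). H3K4me3 was present in at least 2 libraries at 8 of them in Raji and at 15 in REH. The recombinase partner RAG2 and the pre-B cell genes VPREB1 and DNTT, named after their values were seen, had no H3K27me3 peak in any of the 6 libraries.

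Of 21 B lineage transcription factors, 4 were of Raji only (beside 8.15% of all genes) and 1 was of REH only (beside 2.76%). The counts without Raji replicate 2 were 4 and 2, with IRF4 added (beside 15.2 and 3.53% of all genes). BACH2, a repressor needed in germinal centre B cells, had 713 and 407 RPKM in Raji replicates 2 and 3. IKZF1, the Ikaros factor, had 398 and 67.8 RPKM, TCF4 had 206 and 154 RPKM, and ID2, an inhibitor of E proteins, had 144 and 83.2 RPKM in the same libraries. All 4 had H3K4me3 in 3 of 3 Raji libraries, at the same or at another start, and none had an H3K27me3 peak in REH. In Raji replicate 2, 20 of the 21 factors had a promoter peak, beside 6 in Raji replicate 3. The B lineage check genes CD22, CD79A, CD79B, PAX5 and EBF1 had H3K4me3 in all 3 libraries of both lines. For H3K27me3 each of the 5 had a peak in Raji replicate 2 and in no other library, with 258 RPKM at CD22.

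CD24 was the only one of 10 B cell surface antigens of Raji only (beside 8.15% of all genes) with and without Raji replicate 2, and it was marked in every Raji library with 625, 455 and 484 RPKM in replicates 1, 2 and 3. REH had no peak there and had H3K4me3 in 3 of 3 libraries, beside 1 in Raji. Of the 13 MHC class II genes none had a peak in any library except Raji replicate 2, which had 9. H3K4me3 was present in at least 2 libraries at all 13 in Raji and at 4 in REH. Of 28 ligands of innate receptors that the study names, 4 were of Raji only (beside 8.15% of all genes), 0 of REH only (beside 2.76%) and 3 shared (beside 6.57%), and without Raji replicate 2 the counts were the same, beside 15.2, 3.53 and 9.69% of all genes. Among them NECTIN2, a ligand of DNAM-1, had 197 and 234 RPKM in Raji replicates 2 and 3, and ULBP3, a ligand of NKG2D, had 210 and 247 RPKM. HLA-G had 118.1 and 182 RPKM and HLA-B had 289 and 86.3 RPKM in the same libraries, and reads of these polymorphic class I genes may be shared with close copies. NECTIN1, PVR and ULBP2 were marked in both lines.

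Genes of other blood lineages were marked in both lines with different members. GATA1, GATA2, GFI1B and TAL1, factors of erythroid and megakaryocytic cells, were marked in both. NFE2, an erythroid and megakaryocytic factor, had 430, 608 and 672 RPKM in Raji replicates 1, 2 and 3 and no peak in REH. The macrophage receptor gene CSF1R had 140 and 182 RPKM in Raji replicates 2 and 3, and MPO, the myeloperoxidase of granulocytes, had 109 and 170 RPKM, with no peak of either in REH. ELANE, the neutrophil elastase, had 218, 274 and 237 RPKM in REH replicates 1, 2 and 3 and no peak in Raji. Of the 16 genes on this list 4 were of Raji only, 1 was of REH only and 4 were shared, beside 8.15, 2.76 and 6.57% of all genes. With Raji replicate 2 left out the counts were 6, with CSF3R and ITGAM added, 1 and 5, beside 15.2, 3.53 and 9.69%.

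Among 21 T cell genes, CD4, GATA3, TBX21 and TCF7 were shared, 3 were of REH only and 2 were of Raji only, beside 6.57, 2.76 and 8.15% of all genes. Without Raji replicate 2 there were 5 shared, 3 of REH only and 4 of Raji only, with CD28 and CD8A added, beside 9.69, 3.53 and 15.2%. BCL11B, a factor of T cell commitment, had 321, 388 and 777 RPKM in REH replicates 1, 2 and 3 and no peak in Raji, with H3K4me3 in 3 REH libraries as well. CD3D had 79.6, 70.8 and 118.5 RPKM in the REH libraries, and CD3G had 126 and 136 RPKM in replicates 1 and 2. The inhibitory receptor gene CTLA4 had 114 and 133 RPKM in Raji replicates 2 and 3.

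HOX genes, which pattern the body axis, were marked in all 6 libraries. Of 39 genes, 2, 19 and 26 had a promoter peak in Raji replicates 1, 2 and 3 and 13, 12 and 12 in REH replicates 1, 2 and 3. The Raji counts thus lay on both sides of those of REH, and over all genes too the share was larger in Raji replicate 3 (27.4%) than in REH (10.7 to 18.7%). HOX genes of REH only numbered 0, those of Raji only 4 (HOXA3, HOXA9, HOXB13 and HOXC4) and shared ones 12, beside 2.76, 8.15 and 6.57% of all genes. When Raji replicate 2 was left out the counts were 0, 13 and 13, beside 3.53, 15.2 and 9.69%. HOXA9, a factor of early blood progenitors, had 74.3 and 136 RPKM in Raji replicates 2 and 3, and H3K4me3 in 3 REH and 0 Raji libraries. The added genes without Raji replicate 2, such as HOXD13 with 74.0 RPKM, had a peak in Raji replicate 3 alone.

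Of 178 developmental transcription factors, 13 were of REH only, 12 of Raji only and 30 shared, beside 2.76, 8.15 and 6.57% of all genes. The counts without Raji replicate 2 were 13, 31 and 39, beside 3.53, 15.2 and 9.69%. POU3F1, a POU factor of neural and skin cells, had 131, 154 and 145 RPKM in REH replicates 1, 2 and 3, no peak in Raji, and H3K4me3 in 3 Raji and 0 REH libraries. FOXC1 had 172, 179 and 322 RPKM and BARHL1 had 157, 250 and 395 RPKM in REH, with no peak of either in Raji. IRX4, an Iroquois factor of the heart, had 1373 and 1797 RPKM in Raji replicates 2 and 3 and no peak elsewhere. Of 50 WNT, BMP and FGF ligands 5 were of REH only (FGF3, FGF13, FGF18, FGF19 and WNT2), 2 of Raji only (FGF23 and WNT16) and 14 shared, again beside 2.76, 8.15 and 6.57% of all genes. Leaving out Raji replicate 2 gave counts of 7, 7 and 20, beside 3.53, 15.2 and 9.69%. FGF19, a hormone of bile acid control, had 1104, 1238 and 2896 RPKM in REH replicates 1, 2 and 3, and FGF3 had 413, 653 and 974 RPKM, with no promoter peak of either in Raji.

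Of 26 genes of Polycomb subunits and H3K27 demethylases, which write, read or erase the mark, 5 were of Raji only, beside 8.15% of all genes. All 26 had a peak in Raji replicate 2, so none could be of REH only, and without that library 5 were of Raji only and 1, CBX6, of REH only (beside 15.2 and 3.53% of all genes). CBX2 had 398 and 83.2 RPKM, CBX7 had 179 and 43.2 RPKM and RNF2, the RING1B ubiquitin ligase, had 350 and 305 RPKM in Raji replicates 2 and 3. BMI1 and CBX8 were among the 3 shared ones, and H3K4me3 was present in at least 2 libraries at all 26 in Raji and at 25 in REH. Of 10 CDK inhibitor and cyclin D genes, CDKN1A and CDKN1B were of Raji only with and without Raji replicate 2 (beside 8.15 and 15.2% of all genes). They had 424 and 80.2 RPKM and 534 and 191 RPKM in Raji replicates 2 and 3, and both had H3K4me3 in all 3 libraries of both lines. Of 53 clustered protocadherin genes PCDHAC1 and PCDHAC2 were of REH only (beside 2.76% of all genes). Of 77 ribosomal protein genes RPL7 and RPL3L were of Raji only (beside 8.15% of all genes). Without Raji replicate 2, 2 protocadherin genes were of REH only and 2 of Raji only, beside 3.53 and 15.2% of all genes. By the same counts 1 ribosomal protein gene was of REH only and 3 were of Raji only, beside the same shares.

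By signal, the promoters of Raji only that stood highest were those of IRX4, PTK6, RHOD, EPHB2, MRAS, MAN1C1, ZMIZ1, DNMT3A, BACH2 and GINS2. PTK6, a breast tumour kinase, had 1189 and 1584 RPKM in Raji replicates 2 and 3 and no peak elsewhere. ZMIZ1, a transcriptional coregulator, had 938, 568 and 808 RPKM in Raji replicates 1, 2 and 3 and no peak in REH. Of REH only, FGF19, TH, INS, INS-IGF2, GALNT9, TAFA5, PRRX2, C1QTNF8, ADGRB1 and CFAP45 stood highest. TH, the tyrosine hydroxylase of catecholamine synthesis, lay with INS and INS-IGF2 under peaks of 965, 946 and 2192 RPKM in REH replicates 1, 2 and 3. TAFA5 had 768, 773 and 1599 RPKM and PRRX2, a homeobox factor, had 747, 773 and 888 RPKM in REH, and none of these had a peak in untreated Raji.

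The sets were also compared in sequence. In the 300 bases around the 5′ end of each gene, the median ratio of observed to expected CpG was 0.604 for promoters of REH only, 0.634 for those of Raji only and 0.590 for shared ones, beside 0.697 over all genes. The interquartile range was 0.281 to 0.818 for REH only and 0.293 to 0.857 for Raji only, so the ranges overlapped. Without Raji replicate 2 the medians were 0.661 for REH only and 0.509 for Raji only, so that the order of the 2 sets turned. Promoters with a peak in Raji replicate 2 alone had a median of 0.834.

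Regions present in both lines were compared by signal. Peaks of the 6 libraries were merged where they overlapped, and the log2 of the summed signal (RPKM × kb) was compared with limma in 3589 regions called in at least 2 libraries of each line. Each library was first centred on its median over the regions that all 6 libraries shared, and 1709 regions passed an adjusted p of 0.05 (47.6%), of which 384 were higher in Raji (10.7%) and 1325 higher in REH (36.9%). The median over all tested regions was -0.65 on the log2 scale (Raji minus REH). Raji replicate 1 was called in few of these regions, and without it 1814 of 3587 passed (50.6%), of which 1062 were higher in Raji (29.6%) and 752 higher in REH (21%), with a median of 0.25. The direction of the balance thus depends on this library, and 1134 regions passed in both fits with the same sign, 382 higher in Raji and 752 higher in REH. With quantile normalization 3 regions passed, and 220 had an unadjusted p below 0.05. A difference in signal here cannot be told apart from a difference in DNA copy number or in the share of cells that carry the mark.

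The regions with a gene start and the largest differences are described next, in both directions. The region over SYT12 and RHOD, genes of a synaptotagmin and a small GTPase (chr11:67006191-67063800), held 4780, 6419 and 8354 RPKM × kb in Raji replicates 1, 2 and 3. It held 232 and 166 RPKM × kb in REH replicates 1 and 2 and was not called in REH replicate 3. The log2 difference was 5.28 ± 0.32 (SE, limma adjusted p = 0.000309). The region over VEGFA, which encodes the vascular growth factor (chr6:43757291-43774600), held 815, 1865 and 1717 RPKM × kb in the Raji libraries and 89.4 and 104 RPKM × kb in REH replicates 1 and 2. Its log2 difference was 4.10 ± 0.27 (SE, limma adjusted p = 0.000323), and none of the REH peaks reached the promoter window. The region at PCK1, the enzyme that opens gluconeogenesis, held 1454 and 2247 RPKM × kb in Raji replicates 2 and 3 and 59.4 and 79.9 RPKM × kb in REH replicates 1 and 2. The region over the stress cytokine gene GDF15 and LRRC25 held 1193, 2334 and 3159 RPKM × kb in Raji and 119, 168 and 89.6 RPKM × kb in REH. The groups did not overlap in these 4 regions, which the rule of choice required. The other regions higher in Raji lay at RALGDS and GBGT1, GINS2 and C16orf74, ARHGAP23 (in 2 regions), TEAD3 and the MC1R and TUBB3 pair.

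In the other direction, the region over FGF19 (chr11:69683761-69713980) held 4294, 4628 and 8370 RPKM × kb in REH replicates 1, 2 and 3 and 66.2 and 162 RPKM × kb in Raji replicates 2 and 3. The log2 difference was -5.86 ± 0.36 (SE, limma adjusted p = 0.000309). The region of STX1A, a SNARE protein of synaptic vesicles (chr7:73701341-73734100), held 3226, 3647 and 4832 RPKM × kb in REH and 184 and 53.3 RPKM × kb in Raji replicates 2 and 3, and its log2 difference was -5.40 ± 0.61 (SE, limma adjusted p = 0.00129). The region of GRK1, the rhodopsin kinase, held 2189, 2473 and 3744 RPKM × kb in REH and 90.7 and 116 RPKM × kb in Raji replicates 2 and 3. UBASH3A, a suppressor of T cell receptor signalling, lay in a region of 4915, 4753 and 6392 RPKM × kb in REH and of 158 and 378 RPKM × kb in Raji replicates 2 and 3. The other regions reported as higher in REH lay at the calcium channel gene CACNA1H, ZFYVE28 (in 2 regions), GALNT9 and the ADGRB1 and ARC pair.

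These differences were partly in length and partly in density. At FGF19 the called length was 30.2, 30.1 and 22.3 kb in REH and 1.87 and 5.68 kb in Raji replicates 2 and 3, and the mean over called bases was 142, 154 and 376 RPKM in REH and 35.4 and 28.6 RPKM in Raji. At SYT12 and RHOD it was 22.02, 55.9 and 57.6 kb in Raji and 11.6 and 5.75 kb in REH. By the mean signal per called base the log2 difference was -2.48 at FGF19 and 2.16 at SYT12 and RHOD, with limma adjusted p of 0.000138 and 0.000160. All 20 regions taken by the rule passed with the same sign by the mean, by the maximum signal and without Raji replicate 1. The regions higher in REH and those at PCK1, ARHGAP23 and TEAD3 had no peak in Raji replicate 1. Leaving it out thus shifted their differences only through the centring. The regions were chosen for large differences in these same libraries, so these fits are not separate support. With Raji replicate 3 as the only Raji library the log2 difference was -4.02 at FGF19 and 6.67 at SYT12 and RHOD. With quantile normalization 2 of the 20 passed. Without Raji replicate 2, or without replicate 3, 6 of the 20 could be tested, and without 1 REH library 15 to 18 could, and those passed with the same sign.

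Tested regions at list members were few. The 16 tested regions at WNT, BMP and FGF ligands had a median log2 difference of -1.97, beside -0.65 over all 3589. Of them 3 were higher in Raji (beside 10.7% of all regions) and 11 higher in REH (beside 36.9%). Without Raji replicate 1 the median was -1.10 beside 0.25, with 4 higher in Raji (beside 29.6% of all regions) and 8 higher in REH (beside 21%). The 33 regions at developmental transcription factors had a median of -0.53, with 5 higher in Raji (beside 10.7% of all regions) and 12 higher in REH (beside 36.9%). Without Raji replicate 1 their median was 0.34, with 9 and 8 (beside 29.6 and 21%). The 5 regions at HOX genes had a median of -0.81, and 0.16 without Raji replicate 1. No tested region lay at a germinal centre and mature B cell gene.

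Broad domains, made by joining peaks of 1 library over gaps of at most 3 kb, were compared last. Domains of at least 10 kb numbered 26, 1779 and 6845 in Raji replicates 1, 2 and 3 and 6602, 2994 and 1256 in REH replicates 1, 2 and 3. The means were 2883 ± 3541 (SD, n = 3) in Raji and 3617 ± 2727 (SD, n = 3) in REH, with groups that overlapped (exact two-sided permutation test, p = 0.8). Stretches held by domains of at least 2 libraries of a line came to 72.3 Mb in Raji, with 1712 of at least 10 kb, and to 113 Mb in REH, with 2966. Of the Raji length 33.5% lay in the REH stretches, and of the REH length 21.4% lay in those of Raji. Of the wide Raji stretches 605 (35.3%) had no called base in any REH library, and of the wide REH stretches 398 (13.4%) had none in any Raji library. A start of a protein-coding gene lay in 28.0% of the wide Raji stretches and in 19.7% of those of REH. Peaks of Raji replicates 1, 2 and 3 covered 6.11, 87.35 and 95.3% of the wide Raji stretches, which thus rest on replicates 2 and 3. Replicate 2 is the library with peaks at most H3K4me3 promoters, and the stretches were not computed without it. These shares are therefore not read as a difference of the lines.

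Of the stretches held by domains of at least 2 Raji libraries, the widest covered the whole of DNMT3A, the de novo DNA methyltransferase (chr2:25191891-25348970, 157 kb). Peaks covered 16.6, 90.9 and 97.9% of it in Raji replicates 1, 2 and 3 and 0% in each REH library. Its promoters had H3K4me3 in all 3 libraries of both lines, so H3K4me3 peaks covered 1.51% of the domain in Raji and 3.83% in REH. A domain of 104 kb over GJA10 and the 3′ part of BACH2 (chr6:89909001-90012970) was covered at 3.44, 84.6 and 96.1% in the Raji libraries and at 0% in REH. Another domain of 97.9 kb (chr1:25722781-25820650) overlapped SELENON, MTFR1L and the 3′ part of MAN1C1. It was covered at 39.3, 94.7 and 97.5% in the Raji libraries and at 0% in REH. The next widest without a called base in REH lay at NFIX, a factor of the nuclear factor I family (chr19:13011201-13091400, 80.2 kb), and in MAN1C1 (77.2 kb). The wide Raji stretches at NFASC (102 kb) and SDC3 (85.4 kb) were covered at 25.7 to 53.5% and at 54.1 to 78.7% in REH.

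The 5 widest stretches held by at least 2 REH libraries were all present in part in Raji replicates 2 and 3. They lay at RBFOX3, a neuronal splicing factor (chr17:79235791-79506900, 271 kb), in 2 domains at the cell adhesion gene DSCAML1 (178 and 145 kb), at COL18A1 (chr21:45292421-45469350, 177 kb) and in a stretch of chromosome 11 without a protein-coding gene (149 kb). At RBFOX3 peaks covered 98.7, 94.1 and 72.2% in REH replicates 1, 2 and 3 and 2.25, 39.0 and 70.3% in the Raji libraries. At COL18A1, a basement membrane collagen, they covered 95.2, 91.0 and 72.2% in REH and 0, 10.4 and 39.0% in Raji. The widest such REH stretch without a called base in Raji (chr4:9212941-9272880, 59.9 kb) held the USP17L gene array, whose copies are near-identical, so its reads cannot be placed with certainty. The others of the 5 widest without a called base in Raji, on chromosomes 15, 10, 8 and 11, held no protein-coding gene.

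The chromosomes took unequal shares of the called bases. On 7 of 23 chromosomes (30.4%) the groups did not overlap, with larger shares in Raji on chromosomes 3, 7 and 14 and in REH on 8, 10, 16 and 21. Chromosome 8 took 1.97, 2.85 and 3.86% in Raji replicates 1, 2 and 3 and 6.55, 5.98 and 5.45% in REH. Chromosome 7 took 6.4, 6.0 and 6.25% in Raji and 4.23, 3.87 and 4.03% in REH. Copy number and the level of the mark cannot be told apart in these shares.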

How the data were processed

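Untreated H3K27me3 Cut&Tag libraries of Raji and REH were analysed from deposited SEACR peaks. The authors trimmed reads with Trim Galore, aligned them to hg38 with Bowtie2 and normalized coverage to RPKM, and, judged from the values since the files have no header, the deposited signal of a peak is the sum and the maximum of that RPKM coverage. The submitters' processing notes also name bcl2fastq. Versions, the SEACR threshold and its control are not given in the sources used here, and the IgG libraries were not used here. Peaks were called in each library without pooling. Mapped reads were computed from the step between RPKM values, which all peak heights met within 0.02 steps.

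Promoters came from GENCODE 44 (20033 protein-coding genes). Signal in regions was fitted in limma 3.58.1 (R 4.3.3, trended eBayes) with Benjamini-Hochberg adjusted p-values, and the script was tested on simulated data. A library without a peak gave a missing value, so the fit drops it. For single values per library an exact permutation test (two-sided) was used. CpG ratios came from hg38 and printed sequences from RefSeq (GRCh38.p14). All 5 printed genes matched. Scripts used Python 3.11.15, pandas 2.3.3 and matplotlib 3.10.9.

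Named in the text are the 10 regions per direction with the largest log2 change that passed with groups that did not overlap and held a coding start, the 10 promoters of each line with the highest signal, the 5 widest domain stretches held by at least 2 libraries of each line, list members of 1 line only, and CD22. Some items under these rules are not reported here. For lists the text gives a choice of these members. The widest domains without a called base in the other line, RAG2, VPREB1 and DNTT, and genes of 1 line only without Raji replicate 2 (IRF4, CD37, LEF1, HOXD13) were named after the values were seen, as were the further list members given without Raji replicate 2. The members and lists were chosen with earlier results of these data known. Alternatives changed the window, overlap, peak cut-off, peak number, normalization, merging and the libraries included.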

Additional observations from a re-analysis of the deposited data

Results flagged for a closer look

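Peaks on the Epstein-Barr virus contig of the genome lie outside the comparison of human promoters. Untreated Raji replicate 1 had 9 such peaks, replicate 2 had 1 and replicate 3 had 1, while no untreated REH library had any. In bryostatin-treated cells the counts were 5, 21 and 16 in Raji replicates 1, 2 and 3 and 0 in each REH library. The peaks of untreated Raji covered 131, 86.8 and 86.8 kb of the contig in replicates 1, 2 and 3, so fewer peaks here are longer ones. The Raji line carries the virus as background knowledge, and the difference between lines in these counts was not tested.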

How the results depend on the processing

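Counts of promoters of 1 line moved with the peak number and the libraries included. With the same number of peaks in each library (819), 265 promoters were of REH only, 235 of Raji only and 104 shared. With the upper 0.5 of peaks by maximum signal 992 were of Raji only and 640 shared. Required in 3 of 3 libraries, 328 were of REH only and 88 of Raji only. With Raji replicate 2 left out and a peak in only 1 of the other Raji libraries required, there were 3055 of Raji only. Among genes with no H3K4me3 peak 574 were of Raji only and 778 shared, and the difference in promoter share reversed to -2.23 percentage points. Leaving out 1 library gave 328 to 1178 of REH only, 88 to 1897 of Raji only, 175 to 1317 shared and a difference in promoter share of 0.371 to 28.2 points. With 2 Raji libraries still required there were, without Raji replicate 2 or 3, 88 of Raji only and 175 shared, without Raji replicate 3 1178 of REH only, and without REH replicates 1 and 2 in turn 328 and 360 of REH only. Windows of 0.5 or 2.5 kb and an overlap of 500 bp left each count within 1.5 times.

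Called length (Raji minus REH) ranged from -84.4 to 25.5 Mb with 1 library left out and reversed without Raji replicate 1 (23.2 Mb) and without REH replicate 1 (25.5 Mb). Wide domains ranged from -2715 to 758 and reversed without the same 2 libraries (695 and 758).

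Regions past the threshold numbered 3 with quantile normalization, 190 when called in all 6 libraries, 548 with the upper 0.5 of peaks and 2703 with Raji replicate 3 as the only Raji library. With 1 library left out they ranged from 202 to 2117, the lowest without Raji replicate 2 (202), without Raji replicate 3 (213) and without REH replicate 2 (1107). A fit with Raji replicate 3 alone assumes that it varies like REH. The cause of these changes was not tested, apart from the smaller number of regions that can be tested (314 without Raji replicate 2).

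The replicate numbers shared by the lines were also used as a block, and 837 of 2974 regions then passed. Same-numbered libraries correlated in their deviations by -0.088, 0.12 and -0.12 over 287 regions, so no pairing by number was seen in the signal. With few libraries of unequal depth these values cannot show whether same-numbered libraries were processed together.

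Raji replicate 1 had 5.12 M mapped reads and 819 peaks, and the part of depth in its peak number was not tested. The promoter sets from Raji replicates 1 and 3, the genes without H3K4me3 and the fit with Raji replicate 3 alone were chosen after seeing the data.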

Other observations

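The 9p21 region, chosen after its values were seen, had no peak in REH. From chr9:20663721-23219180, a stretch of 2555 kb, none of 12 REH libraries had a peak of H3K27me3 (untreated or treated), H3K4me2 or H3K4me3, while the 12 Raji libraries had 203. The stretch holds the type I interferon genes, MTAP, which encodes an enzyme of methionine salvage, and the cell cycle inhibitor genes CDKN2A and CDKN2B. In Raji, MTAP, CDKN2A and CDKN2B each had H3K4me3 in 3 of 3 libraries. In chromosomes 1 to 22 and X, 46 stretches at least as long without any peak were found in REH and 53 in Raji. Whether the DNA of the stretch is present in REH was not tested.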
